A study of Mus musculus with 8 samples.

Results

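The microRNAs (miRNAs) of the miR-23, miR-27 and miR-24 clusters were examined in the testes of mice on a standard or a Western-like diet. A miRNA was included if its name in the count table was that of a mature product of miR-23a, miR-23b, miR-27a, miR-27b or miR-24. This rule found 9 entries of the 730 entered as miRNAs, and of 20558 small RNAs in all. The 5p arms of miR-23a and miR-23b were not analysed here. Small RNA of 4 control mice (SD mice M1N, M2N, TN1 and TN2) was compared with that of 4 mice on the Western-like diet (WD mice M1W, M2W, M3W and M5W). All were adult C57Bl/6 males, a common inbred strain, with no transgene or deletion named in the labels. The labels give 4 weeks of age for the start of the high-lipid diet and 4 months for mating, and the methods of the study give a younger age for the start. The label on the diet is written for all 8 mice, the controls included, and was not used for the controls. Each library was made from whole testis, so that fewer cells of a type and less RNA per cell cannot be told apart.

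The miRNAs of this family lie in clusters, in which a single primary transcript carries several hairpins that are cut out by Drosha and then trimmed by Dicer. One arm of each hairpin is usually kept by an Argonaute protein and guides it to messenger RNAs through its seed, bases 2 to 8, while the other arm is mostly lost. The a cluster makes miR-23a, miR-27a and miR-24-2, and the b cluster makes miR-23b, miR-27b and miR-24-1. miR-27 is known as a brake on adipocyte differentiation that acts on Pparg, miR-23 as a regulator of glutaminase, and miR-24 as a regulator of the cell cycle. The clusters are also well known from vessels, blood cells and muscle.

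The mature sequences show which products of the clusters a read can tell apart, and are printed as given by RefSeq for the assembly GRCm38.p6, 5′ to 3′, with the seed in capitals. The 3p arms are the abundant ones, and those of miR-23a, miR-27a, miR-27b and miR-24 are
miR-23a-3p: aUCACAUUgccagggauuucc
miR-27a-3p: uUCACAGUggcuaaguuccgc
miR-27b-3p: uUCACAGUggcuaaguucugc
miR-24-3p: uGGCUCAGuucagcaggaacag
and the 5p arms that were counted are
miR-24-2-5p: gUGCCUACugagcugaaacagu
miR-24-1-5p: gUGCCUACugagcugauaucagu
miR-27a-5p: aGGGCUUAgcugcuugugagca
miR-27b-5p: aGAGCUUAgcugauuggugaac

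miR-27a-3p and miR-27b-3p share their seed and their first 18 bases, and differ by the substitution C19U, counted from the 5′ end. The alignment allowed 2 mismatches, so reads of this pair may have been exchanged to an unknown extent. miR-24-2-5p, of 22 bases, and miR-24-1-5p, of 23 bases, share their seed and their first 16 bases. miR-27a-5p and miR-27b-5p differ at 8 positions and have different seeds. The RefSeq set used here held no entry for miR-23b-3p, so its sequence is not printed. Its seed and its likeness to miR-23a-3p were therefore not compared. Among the miRNAs matched to a RefSeq sequence, no other in the table had the seed of a member printed here. miR-24-3p is the same in both clusters, as the hairpins show, with the mature arms in capitals:
Mir24-1: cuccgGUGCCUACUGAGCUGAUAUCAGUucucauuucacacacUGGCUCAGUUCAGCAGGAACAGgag
Mir24-2: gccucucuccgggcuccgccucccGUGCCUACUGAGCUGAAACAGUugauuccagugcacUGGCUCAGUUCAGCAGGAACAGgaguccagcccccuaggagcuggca
The 3p arm matched 2 places in the genome exactly, and therefore only the 5p arms of miR-24 tell the clusters apart.

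In the assembly NCBIM37, which is mm9, the hairpins of the a cluster matched the plus strand of chromosome 8, with Mir23a at chr8:86732417-86732491, Mir27a at chr8:86732571-86732657 and Mir24-2 at chr8:86732714-86732820. They span 404 bases and lie in no other annotated gene. The hairpins of the b cluster matched the plus strand of chromosome 13, with Mir23b at chr13:63401792-63401865, Mir27b at chr13:63402020-63402092 and Mir24-1 at chr13:63402516-63402583. They span 792 bases within an intron of 2010111I01Rik, a gene on the same strand. The annotation names a miRNA gene, AC130827.1, on the opposite strand of the Mir24-1 hairpin, and whether reads were counted by strand is not given in the sources used here.

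SD mice had between 2064562 and 3253798 counts in total, and WD mice between 2159625 and 3092399. At these totals 3 counts, taken here as the floor, correspond to 0.922 to 1.45 CPM, the count scaled to a common library size. The libraries of M1N and M2N stood apart from the others, at -71.4 and -34.8 on the first principal component of all small RNAs, against 4.28 to 33.9 for the other 6 mice. The SD mice also differed in miR-122-5p, the liver miRNA, with 49 counts in TN1, 28 in TN2 and 0 in the other 6 mice. Among the WD mice, miRNAs took the highest share of the counts in M2W, 12.7%, against 9.23 to 10.7% in the other 7. For these reasons the comparisons of the arms and of their ratios were also made against each pair of SD mice and without M2W.

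The 9 members held 62671 counts in all. Their share of the counts on miRNAs was 2.48 to 2.97% in SD mice (median 2.58%) and 2.34 to 3.83% in WD mice (median 2.52%). Their summed level was 2750 ± 509 CPM in SD and 3004 ± 1265 CPM in WD mice (SD, n = 4 each; exact permutation test, two-sided, p = 0.857). Without M2W the WD mean was 2376 CPM, below that of the SD mice (exact permutation test, p = 0.314). Over all 8 mice the order of abundance was miR-24-3p, miR-23a-3p, miR-23b-3p, miR-27a-3p, miR-27b-3p and then the 5p arms. Over the 8 mice miR-24-3p averaged 1076 ± 326 CPM and was number 23 in abundance of the 576 mature miRNAs listed, miR-23a-3p averaged 895 ± 335 CPM and miR-23b-3p 640.5 ± 198 CPM. The SDs of these neighbours in the order overlapped, as did those of miR-27a-3p at 124 ± 44.4 CPM and miR-27b-3p at 116 ± 27 CPM, although miR-23a-3p exceeded miR-23b-3p within each mouse. The means of miR-27b-3p and miR-27a-3p were 107 and 99.9 CPM in SD mice and 125 and 148 CPM in WD mice, so their rank was not the same in both groups, a difference within the spread between mice. miR-24-2-5p followed at 20.5 ± 11.3 CPM and miR-24-1-5p at 2.85 ± 1.47 CPM. The 5p arms of miR-27b and miR-27a, at 1.12 ± 0.588 and 0.924 ± 0.442 CPM, were near the floor.

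**Figure D1:**
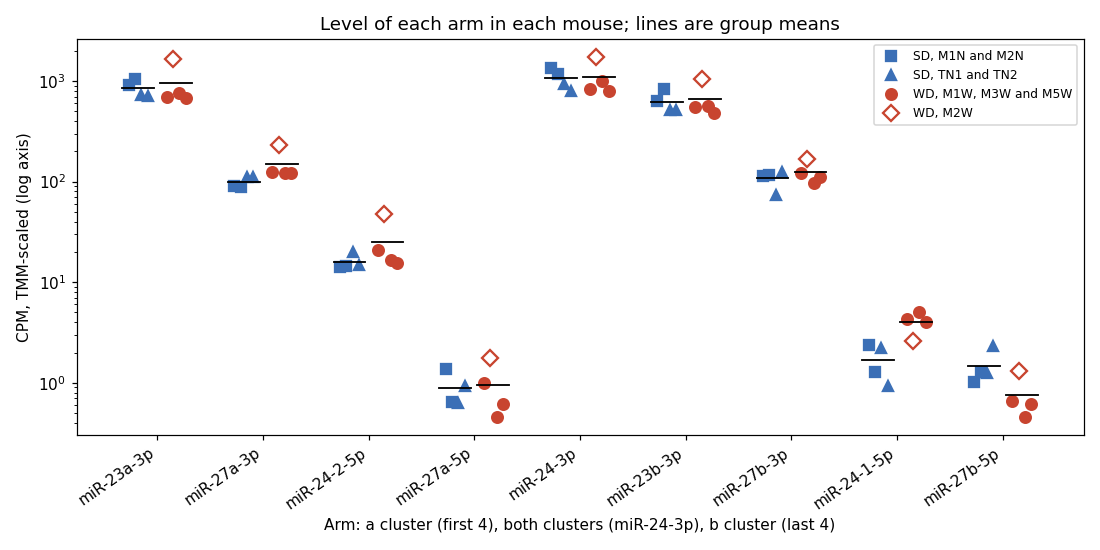
Level of each of the 9 members in each mouse, in CPM scaled by TMM factors on a log axis, with SD mice in blue, WD mice in red and group means as lines. M2W, the open diamond, is the highest WD mouse for 8 members and the lowest for miR-24-1-5p, and the SD and WD points do not overlap for miR-27a-3p and miR-24-1-5p.

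To ask whether diet changed the level of any member, the counts were tested with edgeR across all small RNAs. Of the 9 members 6 passed the filter on low counts and were tested. No member had an adjusted p under 0.05 (edgeR with Benjamini-Hochberg adjustment), nor had any of the 16955 small RNAs tested, a background of 0%. At an unadjusted p under 0.05 there was 1 member and 2474 small RNAs. The study applied looser criteria to its miRNAs, a change of at least 1.5-fold with a p up to 0.1. It does not say whether that p was adjusted, and an unadjusted p was used here. The study also measured selected miRNAs by quantitative RT-PCR in testis and sperm. By the looser criteria, 1 member of 6 was counted, miR-24-2-5p, against 15.1% of the 418 miRNA entries tested and 10.7% of all small RNAs tested. The share of members counted was thus near the background. The median log2 fold change of the 6 members was 0.19, that of the miRNA class 0.03 and that of all small RNAs tested -0.01.

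miR-27a-3p, the a cluster copy of miR-27, had the smallest p of the 6 members tested. Its level was 89.8 CPM in M1N, 88.6 in M2N, 111 in TN1 and 111 in TN2, against 123 in M1W, 229 in M2W, 120.3 in M3W and 121 in M5W. All WD mice were above all SD mice, although the lowest WD mouse exceeded the highest SD mouse by little. Of the 6 members tested 1 had groups that did not overlap in CPM, against 8.37% of the miRNA entries tested. The log2 fold change of miR-27a-3p was 0.57 ± 0.21 (approximate SE), a fold change of 1.48, with an unadjusted p of 0.0172 and an adjusted p of 0.318 in edgeR. By the two-sided exact permutation test of its log2 CPM, p was 0.0286, the lowest possible with 4 against 4 mice. Without M2W it was 0.29 ± 0.17 (edgeR, unadjusted p of 0.117, adjusted p = 0.418). With only M1N and M2N as controls the value was 0.73 ± 0.24, with an adjusted p of 0.0358, a fit in which 20.8% of all small RNAs tested passed. Against TN1 and TN2 alone it was 0.42 ± 0.22 with an unadjusted p of 0.0765 and an adjusted p of 1.00 in edgeR, a fit in which 0.134% of all small RNAs passed and 0 members.

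miR-27b-3p, the copy from the b cluster with the same seed, had 114 CPM in M1N, 116 in M2N, 74.3 in TN1 and 125 in TN2. The WD mice had 123 CPM in M1W, 169 in M2W, 95.8 in M3W and 110.4 in M5W, and the groups overlapped. Its log2 fold change was 0.22 ± 0.21 (edgeR, adjusted p = 0.608), and 0.04 ± 0.20 without M2W. In none of 19 alternative fits did it reach an unadjusted p of 0.1, whereas miR-27a-3p did so in 18, the exception being the fit without M2W. Whether both copies differed in their response is given by their ratio, below.

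The 3 most abundant members, miR-24-3p, miR-23a-3p and miR-23b-3p, shared a pattern over the mice. miR-24-3p had 1331 CPM in M1N, 1172 in M2N, 927 in TN1 and 799 in TN2, against 838 in M1W, 1734 in M2W, 1010 in M3W and 799 in M5W. miR-23a-3p had 911, 1039, 717 and 702 CPM in M1N, M2N, TN1 and TN2, and 694, 1663, 754 and 679 CPM in M1W, M2W, M3W and M5W. miR-23b-3p had 631, 840.5, 513 and 511 CPM in the SD mice and 547, 1040 (M2W), 566 and 477 CPM in the WD mice, in the same order. In all of them M2W was highest, M1N and M2N came next, and the other 5 mice were lower. Their log2 fold changes were 0.05 ± 0.24, 0.17 ± 0.26 and 0.08 ± 0.24 (edgeR, adjusted p = 0.929, 0.769 and 0.894).

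The sign of these differences depended on the mice compared. Against M1N and M2N alone the log2 fold changes of miR-24-3p, miR-23a-3p and miR-23b-3p were -0.19, -0.04 and -0.16, and against TN1 and TN2 alone 0.34, 0.42 and 0.36. Without M2W they were -0.26, -0.25 and -0.23, and none of these values had an unadjusted p of 0.1 or less in edgeR. The median of the miRNA class moved the same way, from 0.03 in all mice to -0.14, 0.19 and -0.10 in the same fits. Of the 19 alternative fits, the sign was opposite to that in all mice in 5 for miR-24-3p, 2 for miR-23a-3p and 4 for miR-23b-3p. It was the same in all 19 for miR-27a-3p, miR-27b-3p and miR-24-2-5p.

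**Figure D2:**
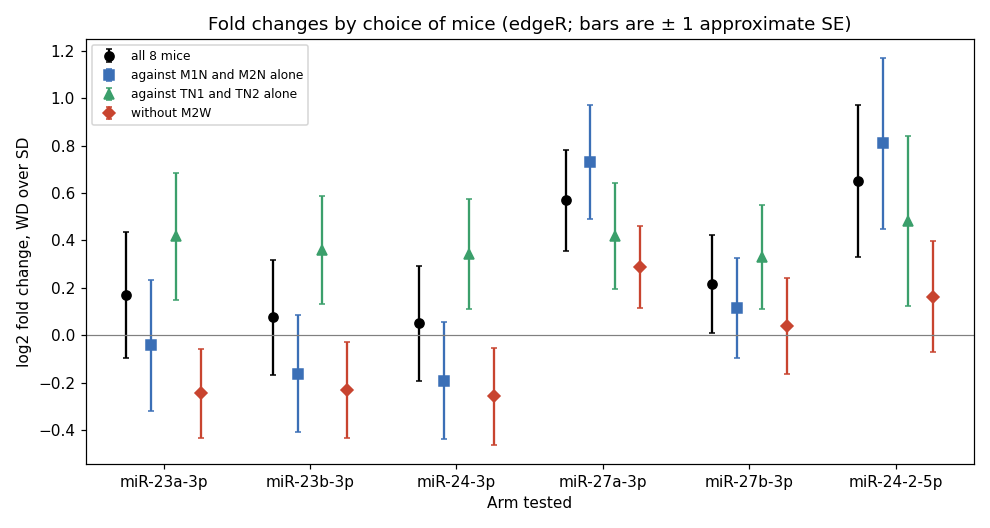
Log2 fold change of the 6 members tested, WD over SD, in edgeR with all 8 mice (black circles), with M1N and M2N as the only controls (blue squares), with TN1 and TN2 as the only controls (green triangles) and without M2W (red diamonds); bars are ± 1 approximate SE. The values of miR-23a-3p, miR-23b-3p and miR-24-3p change sign with the mice compared, and those of miR-27a-3p lie above 0 in all of them, between 0.29 and 0.73.

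The 5p arms of miR-24 come from different hairpins and were counted apart. miR-24-2-5p, of the a cluster, had 14.1 CPM in M1N, 14.3 in M2N, 20.2 in TN1 and 14.8 in TN2. The WD mice had 21.0 CPM in M1W, 47.8 in M2W, 16.6 in M3W and 15.6 in M5W. M2W was far above the rest, and TN1 lay within the range of the other WD mice. The log2 fold change was 0.65 ± 0.32 (edgeR, unadjusted p of 0.0593, adjusted p = 0.352), and 0.16 ± 0.24 without M2W (edgeR, adjusted p = 0.742), so that the call by the looser criteria rested on that mouse. It was also lost without M2N, where the value was 0.61 ± 0.36, with limma-voom at 0.49 ± 0.31 and against TN1 and TN2 alone at 0.48 ± 0.36. With TMM factors from the miRNA class alone the fold change of 1.498 was just under the limit.

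miR-24-1-5p, of the b cluster, was counted 7 times in M1N, 4 in M2N, 7 in TN1 and 2 in TN2, against 13 in M1W, 6 in M2W, 11 in M3W and 13 in M5W. In CPM these were 2.40, 1.28, 2.21 and 0.926 in SD and 4.27, 2.63, 5.07 and 4.04 in WD mice. All WD mice were above all SD mice, and M2W was here the lowest of the WD mice. The arm did not pass the filter in the comparison of all mice. Without a filter its log2 fold change was 1.19 ± 0.41 (edgeR, unadjusted p of 0.00994, adjusted p = 0.346). In some fits to fewer mice the arm passed the filter through the counts of the WD mice, and their values are not used here. Its counts carry a large counting error, and its difference was noted only after its values had been seen.

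The rarest members were the 5p arms of miR-27. miR-27b-5p was counted 3, 4, 4 and 5 times in M1N, M2N, TN1 and TN2, and 2, 3, 1 and 2 times in M1W, M2W, M3W and M5W. miR-27a-5p was counted 4, 2, 2 and 2 times in the SD mice and 3, 4, 1 and 2 times in the WD mice. The groups overlapped for both, and a difference was not detectable at this depth (without a filter, edgeR log2 fold changes of -0.87 ± 0.58 and 0.09 ± 0.62, adjusted p = 0.499 and 0.956).

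To compare the clusters within a library, where the scaling of libraries has no part, ratios of counts were formed for each mouse. The share of the a cluster was taken over the 3p arms of miR-23 and miR-27 and the 5p arms of miR-24, without the rare 5p arms of miR-27. It was 56.9% ± 1.94 in SD and 58.0% ± 2.59 in WD mice (SD, n = 4 each; exact permutation test, two-sided, p = 0.514). The highest share was that of M2W, 61.6%, and without it the WD mean was 56.9%. The ratio of miR-23b-3p to miR-23a-3p was 0.693, 0.809, 0.715 and 0.728 in M1N, M2N, TN1 and TN2, and 0.789, 0.625, 0.751 and 0.702 in M1W, M2W, M3W and M5W. miR-23a-3p was the more abundant in all 8 mice, and the ratio differed between the diets by -0.04 on the log2 scale (exact permutation test, two-sided, p = 0.686, and 0.686 adjusted over the 3 ratios of the clusters). Whether reads were exchanged between these arms was not tested.

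The ratio of miR-27b-3p to miR-27a-3p varied more. It was 1.27 in M1N, 1.31 in M2N, 0.672 in TN1 and 1.13 in TN2, and 0.997 in M1W, 0.738 in M2W, 0.797 in M3W and 0.910 in M5W. In 3 of 4 SD mice miR-27b-3p was the more abundant, and in all WD mice miR-27a-3p was, while TN1 was below all WD mice. The difference was -0.31 on the log2 scale (exact permutation test, two-sided, p = 0.257, adjusted p = 0.471). Without TN1 it was -0.53 (exact permutation p = 0.0286, the smallest that 4 against 3 mice allow). It was -0.59 against M1N and M2N and -0.03 against TN1 and TN2, where 4 against 2 mice cannot give an exact p below 0.0667. A larger change of miR-27a-3p than of miR-27b-3p was therefore not shown.

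The ratio of miR-24-2-5p to miR-24-1-5p, with 0.5 added to both counts, ranged from 5.53 to 13 in SD mice. It was 4.78 in M1W, 16.8 in M2W, 3.17 in M3W and 3.74 in M5W. M1W, M3W and M5W were below all SD mice and M2W was above them. The difference was -0.68 on the log2 scale (exact permutation test, two-sided, p = 0.314, adjusted p = 0.471). It was -1.21 without M2W (exact permutation p = 0.0571) and -0.41 without M3W.

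**Figure D3:**
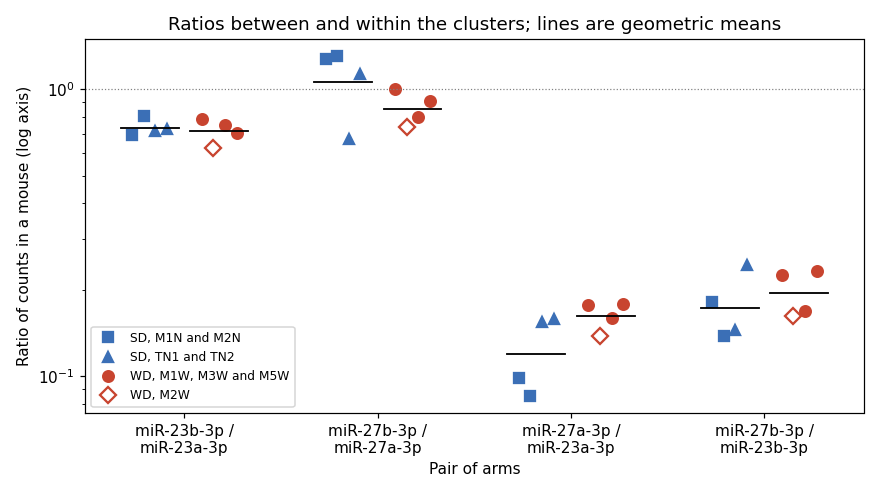
Ratio of the counts of pairs of arms in each mouse on a log axis, with SD mice in blue, WD mice in red, geometric means as lines and a dotted line at equal counts. The miR-23b-3p to miR-23a-3p ratio stays between 0.625 and 0.809, the miR-27b-3p to miR-27a-3p ratio spans 0.672 to 1.31, and M1N and M2N have the lowest miR-27a-3p to miR-23a-3p ratios.

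Within a cluster the arms come from the same primary transcript, and their ratios were compared after the values of the arms had been seen. The ratio of miR-27a-3p to miR-23a-3p was 0.0986 in M1N and 0.0853 in M2N but 0.154 in TN1 and 0.158 in TN2, and it was 0.178, 0.138, 0.160 and 0.179 in M1W, M2W, M3W and M5W. TN1 and TN2 lay within the range of the WD mice, and M1N and M2N below it. The difference was 0.44 on the log2 scale (exact permutation test, two-sided, p = 0.114, and 0.171 adjusted over 3 ratios). That of miR-24-2-5p to miR-23a-3p, 0.45 on the same scale, gave the same p of 0.114 in the exact permutation test. Both depended on the controls. Against M1N and M2N alone the log2 differences were 0.83 and 0.82, and against TN1 and TN2 0.06 and 0.08. For the b cluster, the miR-27b-3p to miR-23b-3p ratio was between 0.138 and 0.245 in SD and between 0.162 and 0.232 in WD mice, with a log2 difference of 0.17 (exact permutation test, p = 0.457), which ranged from 0.065 without M2N to 0.34 without TN2.

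The use of the arms of each hairpin was compared through the ratio of 3p to 5p counts, with 0.5 added to each. In miR-27b the ratio was 95.3 in M1N, 80.8 in M2N, 52.6 in TN1 and 49.2 in TN2, against 149.8 in M1W, 110.1 in M2W, 139 in M3W and 142 in M5W. The groups did not overlap, and the log2 difference was 1.01 (exact permutation test, two-sided, p = 0.0286, the smallest that 4 against 4 mice allow, and 0.0857 adjusted over the 3 hairpin families). It was 0.62 against M1N and M2N and 1.40 against TN1 and TN2, and the exact permutation p was 0.0571 when any 1 WD mouse was left out. The 5p counts behind it were 1 to 5 in a mouse. In miR-27a the ratio was between 58.3 and 140.6 in SD and between 107 and 174 in WD mice, with a log2 difference of 0.49 (exact permutation test, p = 0.171), which was 0.25 without M1N. For miR-24, with the 5p arms of both hairpins added, it was 80.1, 74.3, 41.2 and 50 in M1N, M2N, TN1 and TN2 and 32.9, 34.2, 46.1 and 40.4 in M1W, M2W, M3W and M5W. The log2 difference was -0.64 (exact permutation test, p = 0.0571, adjusted p = 0.0857). It was -1.02 against M1N and M2N and -0.25 against TN1 and TN2, and none of the 3 passed the adjusted threshold.

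The levels of the 5 3p arms were related to each other over the 8 mice, in 10 pairs with p-values from all pairings, adjusted over the 10. miR-23a-3p and miR-23b-3p, which come from different chromosomes, had a Pearson r of 0.97 (exact permutation, adjusted p = 0.00223) and a Spearman rho of 0.93 (adjusted p = 0.00744). Whether reads were exchanged between these arms, which would bear on this relation, was not tested. miR-23a-3p and miR-24-3p had r = 0.94 (exact permutation, adjusted p = 0.00831) and rho = 0.95, and miR-23b-3p and miR-24-3p had r = 0.90 (exact permutation, adjusted p = 0.0145) and rho = 0.95 (exact permutation, adjusted p = 0.00570 for both rho). Without the 2 mice farthest from the median, r was 0.90, 0.98 and 0.89 for these pairs. Without M2W alone it was 0.96, 0.88 and 0.76 (exact permutation, adjusted p = 0.0179, 0.0560 and 0.0592). Without M1N and M2N it was 0.99, 0.98 and 0.97 (exact permutation, adjusted p = 0.0602, 0.0417 and 0.0602), with fewer mice in both cases. In the 7 other pairs the adjusted p of r was between 0.223 and 0.280 (exact permutation).

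miR-27a-3p was not related to miR-23a-3p or miR-24-3p in this way. With miR-23a-3p, r was 0.59 (exact permutation, adjusted p = 0.223) and rho -0.24. Without M2N and M2W, the mice farthest from the median of miR-23a-3p, r was -0.88, and without M2W alone it was -0.92. Without M1N and M2N it was 0.98, since M2W then lay far from the others. The relation thus rested on these 3 mice. The mice of 1 diet are too few for a correlation of their own.

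**Figure D4:**
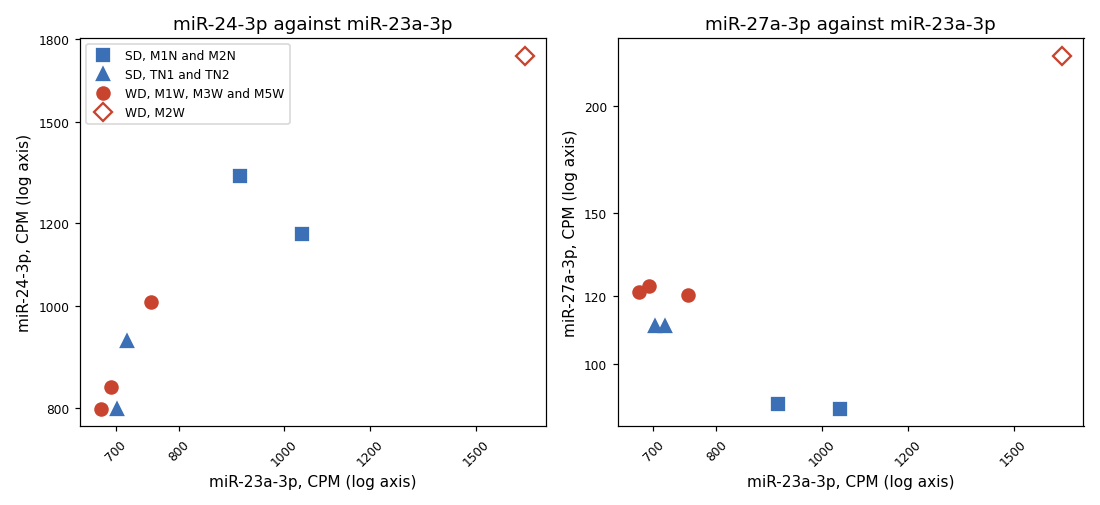
Level of miR-24-3p (left) and of miR-27a-3p (right) against that of miR-23a-3p in each mouse, in CPM on log axes. miR-24-3p follows miR-23a-3p over all 8 mice (r = 0.94), whereas M1N and M2N have high miR-23a-3p and the lowest miR-27a-3p.

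For each 3p arm the 3 mature miRNAs with the most similar levels were named, by the Pearson r of log2 CPM over 8 mice among 255 candidates. These values are descriptions, since the points share libraries and depth. For miR-24-3p they were miR-99a-5p, miR-10b-5p and miR-10a-5p, each with r = 0.98, and for miR-23a-3p they were miR-23b-3p at 0.97, miR-10b-5p at 0.96 and let-7e-5p at 0.96. For miR-23b-3p they were miR-23a-3p, let-7d-3p at 0.96 and miR-152-3p at 0.95. miR-27a-3p had other neighbours, miR-101a-3p at 0.98, miR-202-5p at 0.96 and its cluster mate miR-24-2-5p at 0.94. miR-27b-3p had none above miR-743b-5p at 0.85, followed by miR-145-3p at 0.84 and miR-129-5p at 0.82.

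M2W moved many of these results, and its levels were set beside the mean of the other WD mice. The fold was 2.70 for miR-24-2-5p, 2.35 for miR-23a-3p, 1.97 for miR-24-3p, 1.96 for miR-23b-3p, 1.88 for miR-27a-3p and 1.54 for miR-27b-3p. Of 255 miRNAs, 5 had a higher fold than miR-24-2-5p, 21 than miR-23a-3p and 97 than miR-27b-3p. The median of the 255 was 0.44 on the log2 scale.

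Markers of the cell types that whole testis holds were examined beside the members. Vessel and stroma miRNAs, a list that includes miR-145 and miR-126, had a summed level of 8600 to 13784 CPM in SD and 8365 to 16539 CPM in WD mice. The highest values were those of M2W, at 16539 CPM, M1N, at 13784 CPM, and M2N, at 13284 CPM, the mice that were also highest in miR-23a-3p, miR-23b-3p and miR-24-3p. Of the 16 arms of this list tested, 1 was higher in WD mice by the looser criteria and 0 lower, with a median log2 fold change of 0.02. Its most abundant arms, miR-145-5p, miR-125b-5p and miR-126-3p, had log2 fold changes of 0.11 ± 0.22, -0.30 ± 0.27 and 0.00 ± 0.22 (edgeR, adjusted p = 0.824, 0.581 and 0.996). Blood and immune cell miRNAs summed to 342 to 583 CPM in SD and 283 to 587 CPM in WD mice, again highest in M2W and M1N, and of 7 arms tested 1 was higher and 1 lower. The part of vessels and blood in the members' levels was not tested.

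The defining germ cell miRNAs of testis were abundant, with miR-34c-5p at 7814 ± 720.3 CPM in SD and 8252 ± 1690 CPM in WD mice. The log2 fold changes of miR-34c-5p, miR-34b-5p and miR-878-3p, the most abundant arms, were 0.08 ± 0.18, -0.06 ± 0.17 and -0.37 ± 0.27 (edgeR, adjusted p = 0.849, 0.870 and 0.506). Of 35 germ cell arms tested 3 were higher and 1 lower by the looser criteria, with a median log2 fold change of 0.15. miR-202, of the somatic cells of the gonad, summed over its arms to 3609 to 4193 CPM in SD and 4187 to 7021 CPM in WD mice, with M2W highest, and of its 2 arms 0 met the criteria. The log2 fold changes of miR-202-5p and miR-202-3p were 0.35 ± 0.19 and -0.34 ± 0.25, opposite in sign (edgeR, adjusted p = 0.391 and 0.507). The liver miRNA miR-122 was at 0 in 6 mice and did not pass the filter on low counts. Of the other miRNAs known to act on adipocytes or lipid handling, such as miR-103, miR-107 and miR-130a, 17 arms were tested, of which 0 were higher and 0 lower by the looser criteria, with a median log2 fold change of -0.04. Their summed level was also highest in M2W, at 8599 CPM, followed by 7136 in M1N and 6584 in M2N. Their most abundant arms, miR-103-3p, miR-130a-3p and miR-107-3p, had log2 fold changes of 0.17 ± 0.23, -0.41 ± 0.27 and 0.21 ± 0.21 (edgeR, adjusted p = 0.724, 0.457 and 0.612). As with the other lists, these shares are to be read against the 15.1% of miRNA entries that met the criteria.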

How the data were processed

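Small RNA of 8 testes was extracted with Trizol, made into libraries with the SOLiD Total RNA-seq kit and sequenced on a SOLiD instrument. Reads were cut by the authors where the adaptor began, or else after 31 bases. Bowtie placed them on mm9 with up to 2 mismatches, and their annotation came from miRBase 18, Rfam and a non-coding RNA database. They deposited counts per small RNA and mouse, 1 column a mouse. These were taken as raw since they are whole numbers with a different total in each mouse, although the processing notes of the submitters also name DESeq. Which Bowtie version and counting program were used, and how reads with more than 1 match were treated, is not given in the sources used here. The exchange of reads between near-identical arms could therefore alter their ratio.

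These deposited counts entered edgeR 4.0.16 in R 4.3.3 and its quasi-likelihood test, with TMM factors, column totals as library sizes, filterByExpr (minimum count 10, minimum total 15) and diet as the only term. The Benjamini-Hochberg adjustment was made over all 16955 small RNAs tested. Approximate SE come from the F statistic. CPM were computed with TMM-scaled library sizes. Ratios were taken within a mouse, with 0.5 added where a 5p arm entered, and tested by exact permutation over mice, two-sided. Log2 CPM for correlations and for the first principal component used a prior count of 2. The floor of 3 counts covers counting error only. Values after ± are SDs over mice or SEs of the fits, and include the spread between mice. The procedure was tested on simulated data.

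Named miRNAs were all that match the rule, the 3 most similar to each 3p arm with a mean of 10 CPM or more, and those with a shared seed. Names from a list were taken from its 3 most abundant arms, and not all of these are named for every list. The lists and the members were chosen with earlier results of these data known. The lists, matched by name, were germ cells, gonadal somatic cells (miR-202), vessel and stroma, blood and immune cells, liver (miR-122) and adipogenesis and lipid handling. Hairpins from RefSeq were matched to NCBIM37 by sequence and placed in the GENCODE M1 annotation. Alternatives were DESeq2 1.42.0, limma 3.58.1 (voom), other scalings and filters, either pair of SD mice, each mouse left out, other thresholds and a replicate block. A fit of M1N, M2N, M1W and M2W with no block, the relations without M2W, the ratios within a cluster and the alternatives for the a cluster share and the summed level were added after the data had been seen. No pair of libraries was a duplicate, since the chi-square per degree of freedom over the 28 pairs of mice was 2.67 to 26.5. That mice were housed or treated separately is not stated. The p-values set a difference against the spread between these animals, which includes the split between the pairs of SD mice.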

Additional observations from a re-analysis of the deposited data

Results flagged for a closer look

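Of 40 groups of 4 mice examined, 7 held a mouse whose gap to the nearest of the others was, as a share of the group's whole range, above Dixon's 95% critical value, where chance would give about 2. Of the 7, 6 concerned M2W. Its level was 1663 CPM of miR-23a-3p, against 754 in the nearest WD mouse, 1040 CPM of miR-23b-3p, against 566, and 229 CPM of miR-27a-3p, against 123. It had 47.8 CPM of miR-24-2-5p, against 21.0 in the nearest WD mouse, a gap of 0.830 of the range that lies at the limit. Its ratio of miR-24-2-5p to miR-24-1-5p was 16.8, against 4.78. The summed level of the members in M2W was 4889 CPM, against 2568 in the nearest WD mouse. These values share a library and are not independent. Among the SD mice, TN1 had 20.2 CPM of miR-24-2-5p, against 14.8 in the nearest.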

How the results depend on the processing

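With all mice, 1 member met an unadjusted p of 0.1 and a 1.5-fold change. The number was 0 with limma-voom and with TMM factors of the miRNA class, where 13.4% and 14.1% of the class met both. It was 2 with column totals (miR-27a-3p joined, 14.8% of the class) and without a filter (miR-24-1-5p joined, 16.6%). It was also 2 with the replicate block (27.9%) and with no fold change threshold, for which the share of the class was not computed. It was 3 against M1N and M2N, where 34.0% of the miRNA class met the criteria. With a mouse left out it ranged from 1 to 3, against 12 to 22.9% of the class. Counts in which miR-24-1-5p entered through its WD mice do not bear on that arm. Of the 6 members tested in all mice, 2 met the criteria against M1N and M2N, 0 against TN1 and TN2 (14.9% of the class), 0 without M2W or without M2N, and 2 without TN1 or without TN2. The number with an adjusted p under 0.05 in edgeR, 0 with all mice, was 1 against M1N and M2N, where 20.8% of all small RNAs passed.

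The numbers 1 and 2 in the mouse names are shared by different animals, and the differences between them in SD and WD mice did not correlate over 418 miRNAs (r = -0.0438). In the 4 mice M1N, M2N, M1W and M2W, 2 members, miR-27a-3p and miR-24-2-5p, met the looser criteria, with the replicate block as without it. Both also had an adjusted p under 0.05 in edgeR in these fits. With and without the block, 27.9% and 28.1% of the miRNA class met the looser criteria, and 6.90% and 6.13% of all small RNAs had an adjusted p under 0.05. In these 4 mice, with the replicate block, the log2 difference of the miR-24-2-5p to miR-24-1-5p ratio was 0.26, opposite in sign to that of all mice. The mean difference of 2 balanced pairs is the same with and without the block, so the sign followed from the mice.

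Leaving out a mouse moved the log2 difference of the miR-23b-3p to miR-23a-3p ratio between -0.090 and 0.022 (0.0043 without M2N and 0.022 without M2W, both opposite in sign), that of miR-27b-3p to miR-27a-3p between -0.53 and -0.21, that of miR-24-2-5p to miR-24-1-5p between -1.21 and -0.41, that of the miR-27a 3p to 5p ratio between 0.25 and 0.67, that of the miR-27b 3p to 5p ratio between 0.86 and 1.18, and that of miR-24 between -0.81 and -0.49. For the ratios within a cluster the range was 0.28 to 0.57 for miR-27a-3p to miR-23a-3p and 0.30 to 0.64 for miR-24-2-5p to miR-23a-3p (exact permutation p = 0.0286 without TN1). The miR-27b 3p to 5p difference was 0.62 against M1N and M2N and 1.40 against TN1 and TN2, where the exact test cannot reach 0.05. The number of 10 relations with an adjusted p under 0.05 was 3, and 1 without M1N and M2N or without M2W, where r of these pairs was 0.76 to 0.99 and fewer mice entered. Depth limited the 5p arms of miR-27 and miR-24-1-5p, which had 1 to 13 counts in a mouse.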
